A study of Daphnia magna with 30 samples.

Results

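The 35 transcripts described here are those in the study's list of light-responsive genes whose protein name holds a word of energy metabolism or enzyme chemistry (mitochondrial, dehydrogenase, NADH, cytochrome, ATP synthase, synthase or reductase), leaving out names of ribosomes, translation and chaperones. They were drawn from 959 distinct probes of that list, against 14338 probes on the array. All 35 were on the array and all took their names from proteins of Daphnia magna, the water flea. The words of the name set the membership, so the set also holds enzymes that do not work in the mitochondrion, such as glucose dehydrogenases and cytochromes P450. One further name with a mitochondrial word, a ribosomal protein, was left out by the rule. The list itself was chosen by the study from array values. Of the 35 members, 31 were listed for experimental trial 2, the trial analysed here, and 4 were listed for trial 1 only. The levels and differences of those 31 members are therefore descriptions. The size of the spread within a photoperiod entered the study's tests too, so it is also a description. The 4 others are absent from the trial 2 list, which these arrays decided, so their response here is a description as well. Tests were made of the animals of a chamber and of how same-named probes deviate together.

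The arrays hold 5 photoperiods, given as hours of light and dark: the short days 4L:20D and 8L:16D, the equal day 12L:12D, the longest day 20L:4D and, as the control, 16L:8D. Where 4 values follow each other below, they stand in ascending order of light, 16L:8D left out. Each photoperiod had 3 chambers with 2 single females per chamber (animals A and B), so 6 animals per photoperiod and 30 in all. Every animal descended from 1 individual, which makes a single clone, hatched under 16L:8D, and was sampled whole at 21 days of age. The animals were taken soon after lights came on and still carried the contents of the brood pouch, so an RNA level is that of the mother and of any eggs or embryos together. In whole animals, fewer cells of a type and less RNA per cell cannot be told apart. All 3 chambers of a photoperiod stood in 1 light box, so box and photoperiod cannot be told apart.

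Mitochondria make most of the ATP of an animal. Pyruvate dehydrogenase and fatty acid oxidation feed acetyl-CoA to the citric acid cycle, the respiratory chain passes the electrons to oxygen, and ATP synthase uses the proton gradient that results. Outside the mitochondrion, ATP-citrate synthase turns citrate back into acetyl-CoA for fat synthesis, and the pentose phosphate pathway and malic enzyme supply the NADPH it needs. D. magna uses fat both as a store of the mother and as the yolk of their eggs.

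Several enzymes were represented by more than one probe, and their 50-base probes are shown because the same-named probes did not all move alike. They carry no capitals, since no stretch was singled out. Positions on a genome were not analysed here. The 4 glucose dehydrogenase probes were:
DM00868P2: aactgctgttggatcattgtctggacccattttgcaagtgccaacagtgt
DM00907P2: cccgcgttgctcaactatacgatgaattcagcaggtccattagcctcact
DM11070P3: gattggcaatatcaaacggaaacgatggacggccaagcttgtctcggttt
DM12607P4: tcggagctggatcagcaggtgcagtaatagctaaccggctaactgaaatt
The 3 ATP-citrate synthase probes were:
DM00824P2: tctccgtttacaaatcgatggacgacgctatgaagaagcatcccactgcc
DM03052P2: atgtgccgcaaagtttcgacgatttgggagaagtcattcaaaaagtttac
DM03431P3: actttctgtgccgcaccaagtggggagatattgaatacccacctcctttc
Each probe matched a different protein record, and the longest run of bases that any same-named pair shared was between 4 and 9. The probes thus read separate stretches, of 1 transcript or of several.

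A level below is the log2 processed signal minus the 75th percentile of these log2 signals on its array, so 1 unit is a 2-fold difference and a level compares animals, not probes. A member was called in a photoperiod when limma gave a p under 0.01 for photoperiod and a p under 0.05 against 16L:8D, with a difference of at least 1.5-fold. Because the 31 members had been listed on such values, the calls count members and test nothing. By that count 25 members responded to photoperiod, where 11.4% of all probes did, and 25 were called in at least 1 photoperiod, where 8.06% of all probes were. The member just inside the threshold for photoperiod was 6-phosphogluconate dehydrogenase, at 0.00872, and the one just outside was a probe of uridine 5'-monophosphate synthase, at 0.0117.

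The members split in direction rather than moving together. Of the 25, 14 were called only higher than 16L:8D, 10 only lower, and cytochrome P450 305a1 both ways. Calls under 4L:20D numbered 17 (7 higher and 10 lower), where 4.58% of all probes were called (1.53% higher and 3.05% lower). Under 8L:16D there were 17 calls (12 higher and 5 lower), beside 4.15% of all probes (1.79% and 2.36%). Under 12L:12D there were 18 (12 higher and 6 lower), beside 6.29% of all probes (2.73% and 3.56%). Under 20L:4D only 2 were called (1 higher and 1 lower), where 0.816% of all probes were (0.356% and 0.46%). Without chamber 1 of 16L:8D the calls under 4L:20D numbered 11, without chamber 2 of 12L:12D those under 12L:12D numbered 11, and without chamber 2 of 16L:8D there was none under 20L:4D. Normexp background correction left 9, 6, 9 and 1 calls. Under 4L:20D, 8L:16D and 12L:12D alike, 9 members were called, where 2.2% of all probes were. The median log2 fold change of the 35 was near 0 in every photoperiod, at -0.07, -0.09, 0.05 and -0.07 in ascending order of light, beside -0.06, -0.03, -0.06 and -0.02 over all probes. The median absolute change was 0.75, 0.65, 0.69 and 0.21, beside 0.27, 0.22, 0.25 and 0.17 over all probes.

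The 6 animals did not overlap those of 16L:8D for 10 members under 4L:20D, 2 under 8L:16D, 6 under 12L:12D and 0 under 20L:4D. Over all probes the shares were 4.55%, 1.19%, 5.5% and 0.551%. The mean was highest under 12L:12D for 13 members (37.1%, beside 20.3% of all probes) and under 16L:8D for 12 (34.3%, beside 28.4%). The lowest mean fell under 4L:20D or 16L:8D for 11 members each, beside 25.0% and 19.7% of all probes.

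**Figure D1:**
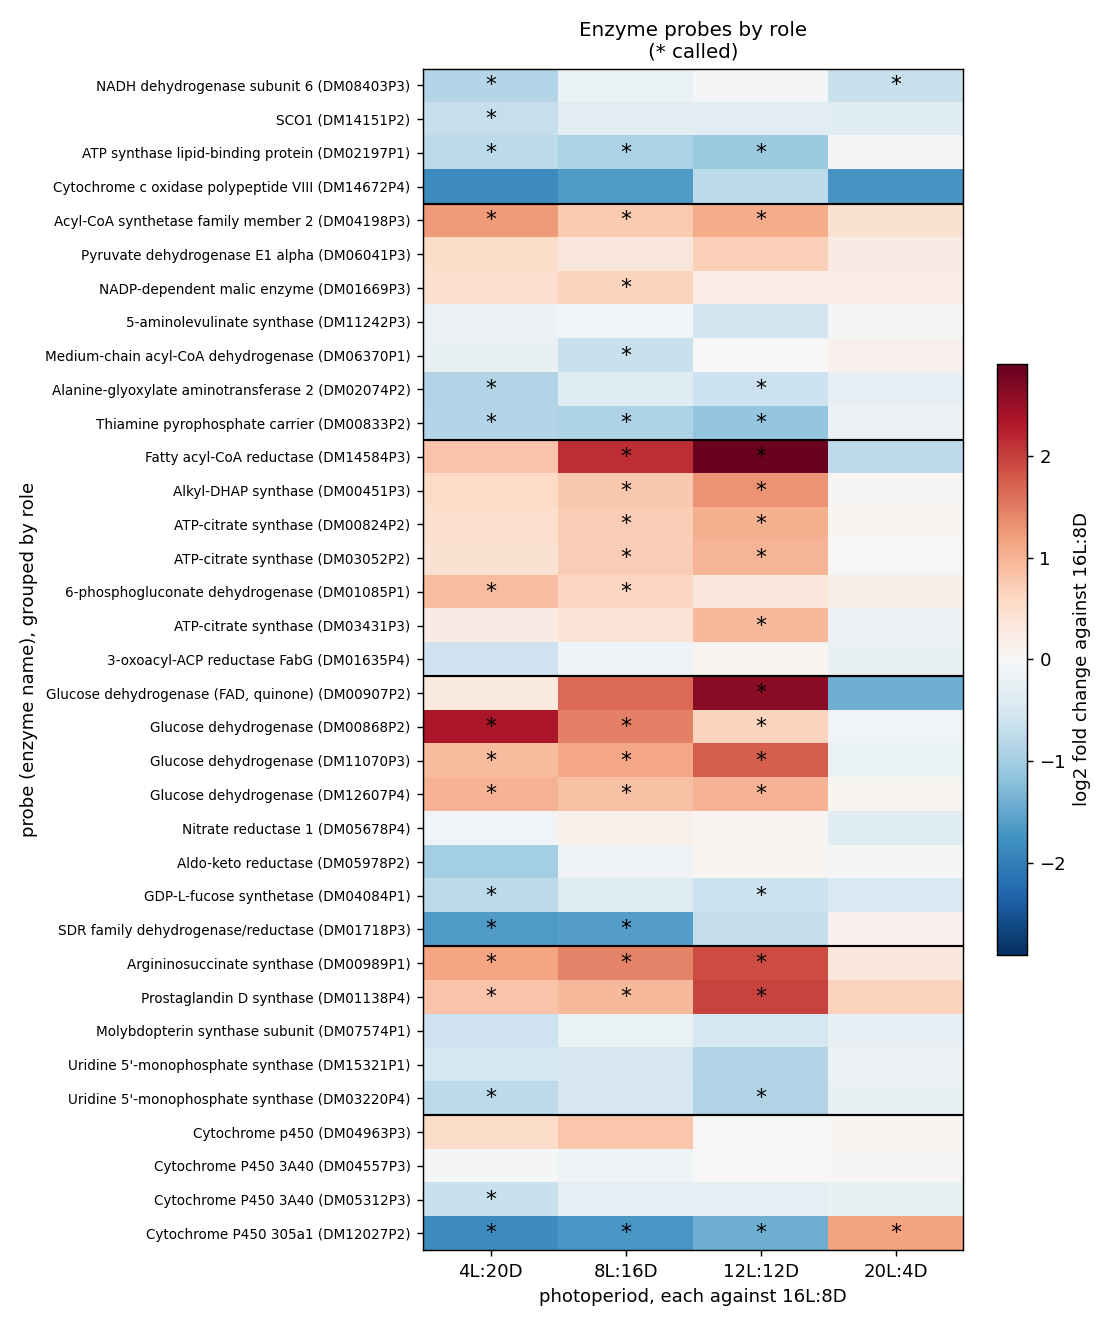
Log2 fold change against 16L:8D (colour) of the 35 members (rows, grouped by role) in 4 photoperiods (columns), with an asterisk where a member was called. The lipid synthesis block holds no lower call, the respiratory chain block is blue with no higher call, and 20L:4D holds 2 asterisks in all.

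The respiratory chain held 4 members, and all 4 had means below 16L:8D in every other photoperiod, 3 being called lower in at least 1. Over all probes, 43.3%, 45%, 43% and 47% had means above 16L:8D, and 8.06% were called in at least 1 photoperiod. The ATP synthase lipid-binding protein (DM02197P1), a subunit of the rotating ring of ATP synthase, had a lowest, median and highest level of 6.84, 7.49 and 7.83 under 4L:20D, 6.88, 7.20 and 7.60 under 8L:16D and 6.96, 7.04 and 7.14 under 12L:12D. It had 7.45, 8.24 and 8.65 under 20L:4D, against 6.92, 8.27 and 8.70 under 16L:8D. All 3 short photoperiods lay low except that 1 animal of 16L:8D, animal 2B, stood among them, so the groups overlapped. The log2 fold change was -0.77, -0.92 and -1.08 under 4L:20D, 8L:16D and 12L:12D, with -0.04 under 20L:4D, each ± 0.21 (SE). Under 4L:20D the call was lost without chamber 1 of 16L:8D, where the value was -0.55. Of the 6 calls in the group, 4 were left with slide as a block and 5 after normexp background correction.

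NADH dehydrogenase subunit 6 (DM08403P3), encoded by the mitochondrial genome and part of complex I, lay low at both ends of the light range. Its level was -0.02, 0.22 and 0.86 under 4L:20D and -0.19, 0.68 and 1.02 under 20L:4D, against 0.81, 1.04 and 1.78 under 16L:8D, so that the ranges overlapped a little. The change was -0.85 ± 0.22 under 4L:20D and -0.64 ± 0.22 under 20L:4D, while 8L:16D and 12L:12D were not called. The 20L:4D call was lost without chamber 1 of 20L:4D (-0.35), chamber 2 of 16L:8D (-0.53) or chamber 1 of 4L:20D, and the 4L:20D call without chamber 1 of 4L:20D (-0.76). Both were lost with slide as a block, at -0.45 under 20L:4D and -0.90 under 4L:20D. SCO1 (DM14151P2), which delivers copper to cytochrome c oxidase, was called only under 4L:20D, at -0.68 ± 0.15, with no overlap with 16L:8D. Leaving out chambers 1 or 2 of 4L:20D, or 1 or 3 of 16L:8D, ended that call, as did normexp (-0.56) and scan day as a block (-0.65).

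Cytochrome c oxidase polypeptide VIII (DM14672P4), a small subunit of complex IV, had the largest respiratory chain differences but was not called. Its level was -1.98, -1.70 and 0.06 under 4L:20D, -2.24, -1.37 and 0.25 under 8L:16D, -0.62, -0.48 and 0.26 under 12L:12D and -2.18, -1.53 and 0.24 under 20L:4D, against -1.65, 0.69 and 2.39 under 16L:8D. The 16L:8D animals spread over more than the differences between photoperiods, which were -1.84, -1.65, -0.76 and -1.71, each ± 0.61. It was called in all 4 photoperiods without chamber 3 of 16L:8D.

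There were 7 other mitochondrial enzymes and carriers, of which 3 were called lower and 2 higher in at least 1 photoperiod. Over all probes, 8.06% were called in at least 1 photoperiod. The thiamine pyrophosphate carrier (DM00833P2) brings into the matrix the cofactor that pyruvate dehydrogenase uses. It had -1.44, -1.01 and -0.42 under 4L:20D, -1.51, -0.95 and -0.38 under 8L:16D and -1.67, -1.26 and -0.57 under 12L:12D, against -0.65, -0.01 and 0.47 under 16L:8D. The ranges touched only through the lowest 16L:8D animal, and all 6 animals of each of these 3 photoperiods lay below the 16L:8D mean. The change was -0.86, -0.89 and -1.12, each ± 0.24, and it was called in all 3 under every alternative fit and normalization tried.

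Alanine-glyoxylate aminotransferase 2 (DM02074P2), which passes the amino group of alanine to glyoxylate, was called lower under 4L:20D (-0.87 ± 0.17) and 12L:12D (-0.62 ± 0.17), in both without overlap with 16L:8D. The 12L:12D call was lost without chamber 2 or chamber 3 of 12L:12D and after normexp (-0.55). Medium-chain acyl-CoA dehydrogenase (DM06370P1), a step of fatty acid oxidation, was lower under 8L:16D only, at -0.65 ± 0.18, and not without chamber 1 or 2 of 8L:16D or of 16L:8D, after normexp (-0.57) or with slide as a block (-0.51).

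Acyl-CoA synthetase family member 2 (DM04198P3), which activates medium-chain fatty acids, ran the other way. Its level was -2.87, -2.30 and -1.86 under 4L:20D, -3.55, -2.82 and -2.01 under 8L:16D and -3.05, -2.33 and -2.16 under 12L:12D, against -4.10, -3.51 and -3.23 under 16L:8D. All 6 animals of 4L:20D and of 12L:12D lay above every 16L:8D animal. The change was 1.24, 0.76 and 1.08, each ± 0.26, and the 8L:16D call was lost without chamber 1 of 8L:16D (0.54) or with slide as a block (0.51). After normexp the change was 0.66, 0.28 and 0.64, and none of the 3 was called.

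Malic enzyme (DM01669P3), named as the mitochondrial NADP-dependent form, makes NADPH from malate. It was called higher under 8L:16D only, at 0.65 ± 0.16 and with no overlap. That call was lost without chamber 2 of 8L:16D (0.47) or any 1 chamber of 16L:8D, after normexp (0.39), and with slide (0.68) or scan day (0.65) as a block. The pyruvate dehydrogenase E1 alpha subunit (DM06041P3), which starts the entry of pyruvate into the citric acid cycle, was not called, with 0.69 ± 0.20 under 12L:12D as its largest difference. 5-aminolevulinate synthase, the first enzyme of haem synthesis, is described among the 4 members from the other trial.

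**Figure D2:**
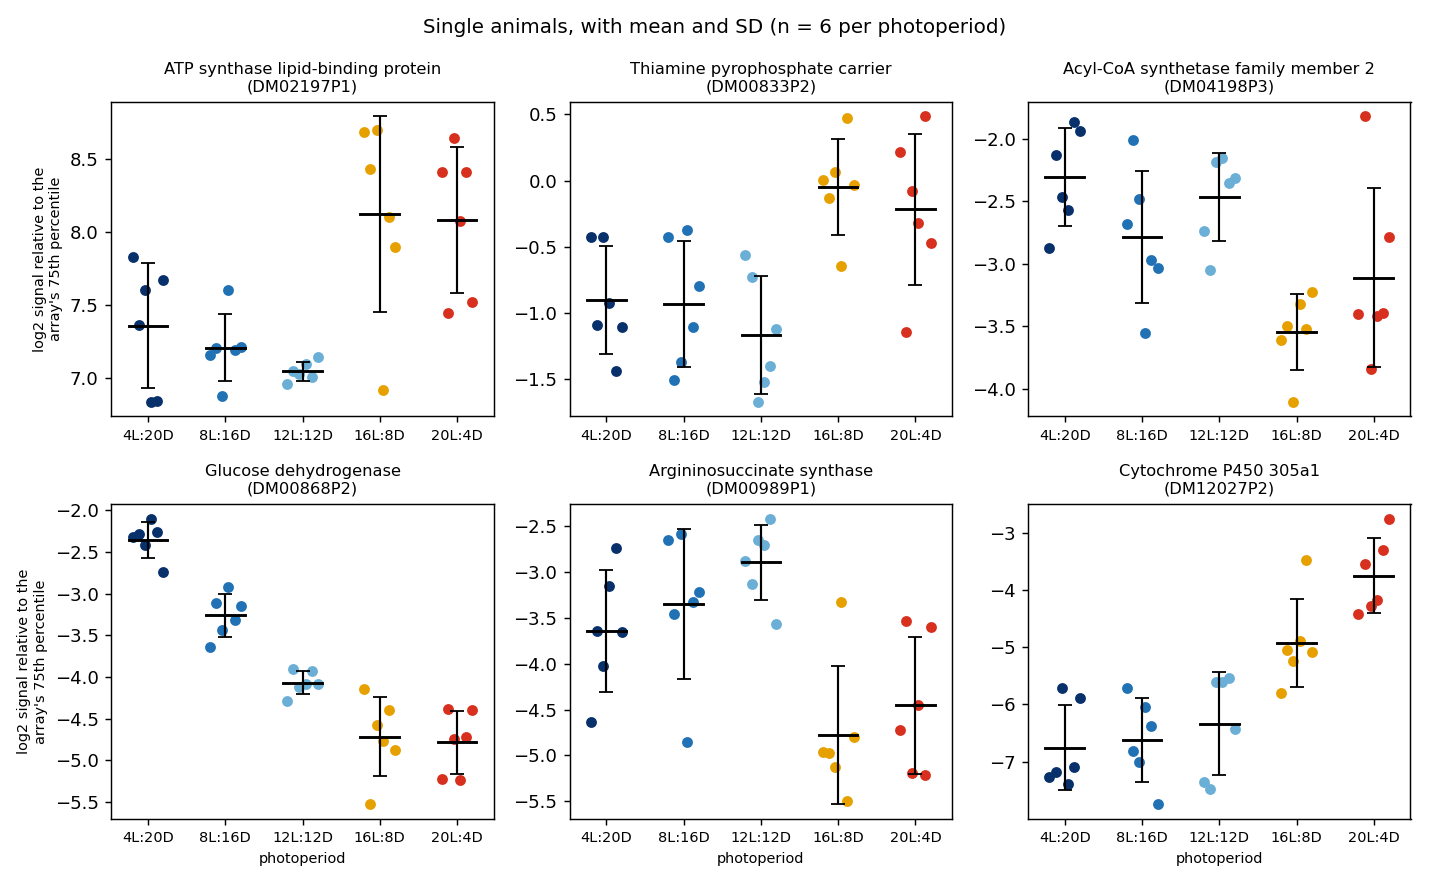
Level (y axis, log2 signal relative to the 75th percentile of the array) of 6 members in single animals (dots) by photoperiod (x axis), with the mean and SD of 6 animals as bars. Glucose dehydrogenase DM00868P2 steps down with hours of light, cytochrome P450 305a1 steps up, and single 16L:8D animals stand apart for the ATP synthase subunit and argininosuccinate synthase.

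A group of 7 members makes acetyl-CoA, NADPH or lipids, and 6 of them responded, with every call a higher one (1 under 4L:20D, 5 under 8L:16D, 5 under 12L:12D, 0 under 20L:4D). Over all probes, 1.53%, 1.79%, 2.73% and 0.356% were called higher. Of these 11 calls, 2 were left with slide as a block, both of fatty acyl-CoA reductase, and 4 after normexp. The median log2 fold change of the 7 was 0.51, 0.71, 0.99 and 0.02 in ascending order of light. Fatty acyl-CoA reductase (DM14584P3), which turns fatty acids into the alcohols of waxes, had the largest fitted differences and a dim probe. Its level was -7.45, -6.79 and -2.91 under 4L:20D, -6.08, -5.14 and -3.57 under 8L:16D and -4.76, -4.43 and -3.17 under 12L:12D, with -8.37, -7.84 and -6.92 under 20L:4D, against -8.09, -7.39 and -4.30 under 16L:8D. Of the 6 animals it was well above background in 1, 4, 6, 0 and 1, in the same order of photoperiods. The change was 2.13 under 8L:16D and 2.83 under 12L:12D, each ± 0.65, with most 16L:8D animals at background. After normexp it was 0.22 and 0.67 and not called, and a filter on dim probes left the probe untested. One animal each of 4L:20D and 16L:8D stood far above the other 5.

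The 3 ATP-citrate synthase probes were higher under 12L:12D by a like amount. DM00824P2 had -0.94, -0.57 and -0.15 under 12L:12D, against -1.83, -1.68 and -0.71 under 16L:8D. DM03052P2 had 1.29, 1.77 and 2.23, against 0.46, 0.63 and 1.75 under 16L:8D. DM03431P3 had -1.76, -1.70 and -1.49, against -3.001, -2.64 and -1.72 under 16L:8D. Each comparison overlapped only through animal 2B of 16L:8D. The change under 12L:12D was 1.03 ± 0.25, 0.99 ± 0.27 and 0.93 ± 0.26 for the 3 probes, and under 4L:20D it was 0.51, 0.44 and 0.25, not called for any. Without chamber 2 of 12L:12D, the call of each probe under 12L:12D was lost (0.86, 0.79 and 0.89). All 3 were also lost with slide as a block, at 1.06, 1.03 and 0.83, and that of DM03431P3 after normexp (0.69). DM03431P3 also lost it without chamber 1 or 3 of 12L:12D. DM03052P2 did so without chamber 3 of 12L:12D or chamber 1 or 3 of 16L:8D or of 20L:4D.

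Alkyldihydroxyacetonephosphate synthase (DM00451P3), the peroxisomal enzyme that sets up ether lipids, was higher by 0.79 under 8L:16D and 1.31 under 12L:12D, each ± 0.31. The 8L:16D call was lost without chamber 3 of 8L:16D, 2 of 12L:12D, or 1 or 3 of 16L:8D, and the 12L:12D call without chamber 2 of 12L:12D. Slide as a block ended both (0.72 and 1.501) and normexp the 8L:16D call (0.58). 6-phosphogluconate dehydrogenase (DM01085P1), the second NADPH-making step of the pentose phosphate pathway, lay above all 16L:8D animals under 4L:20D, at 1.73, 1.82 and 2.27, against 0.78, 0.95 and 1.26 under 16L:8D. Its change fell with light, at 0.90 under 4L:20D, 0.63 under 8L:16D and 0.34 under 12L:12D, each ± 0.24. As the member nearest the threshold it lost both calls under most alternatives. The bacterial-type 3-oxoacyl reductase FabG (DM01635P4), an enzyme of fatty acid synthesis, was not called and lay lowest under 4L:20D, at -0.60 ± 0.21.

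Among other lipid enzymes of the study's list, chosen by name, 5 of 10 responded, where 11.4% of all probes did. None of the 10 was called higher under 4L:20D or 8L:16D, against 3 and 4 called lower. Under 12L:12D 1 was called higher and 2 lower. Over all probes 3.05%, 2.36% and 3.56% were called lower in these photoperiods. The list was drawn from the study's list, so its counts are descriptions. Acetyl-CoA carboxylase (DM02087P1), the step that commits acetyl-CoA to fat, had the smallest p of the list. Its log2 fold change was -1.71, -1.61 and -1.82 under 4L:20D, 8L:16D and 12L:12D. The probes of ATP-citrate synthase, the step before it, had changes above 0 in these photoperiods. None of them was called under 4L:20D, and DM03431P3 was not called under 8L:16D (0.42).

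Glucose dehydrogenase, which oxidises glucose with a flavin cofactor and in Drosophila melanogaster is needed for emergence from the pupal case, had 4 probes with differing profiles over photoperiod. DM00868P2 was the member with the steadiest steps. Its level was -2.75, -2.30 and -2.10 under 4L:20D, -3.64, -3.23 and -2.92 under 8L:16D and -4.29, -4.09 and -3.90 under 12L:12D. It was -5.23, -4.73 and -4.39 under 20L:4D, against -5.53, -4.67 and -4.14 under 16L:8D. The 4L:20D animals lay above all 8L:16D animals, and those above all 12L:12D animals, while 20L:4D overlapped 16L:8D throughout and 12L:12D overlapped it in part. The change was 2.36, 1.45, 0.65 and -0.07, each ± 0.16. After normexp background correction it was 0.96, 0.42 and 0.38 under 4L:20D, 8L:16D and 12L:12D, the last 2 not called. As fitted here the level was 5.13-fold higher under 4L:20D and 2.74-fold higher under 8L:16D.

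Of the other 3 probes, DM11070P3 and DM00907P2 had their largest change under 12L:12D, while DM12607P4 changed by nearly the same amount under 4L:20D and 12L:12D. DM11070P3 had -5.91, -4.53 and -2.70 under 4L:20D, -5.72, -3.93 and -3.37 under 8L:16D and -3.94, -3.74 and -3.06 under 12L:12D, against -6.06, -5.59 and -4.03 under 16L:8D, a change of 0.91, 1.12 and 1.76, each ± 0.42. DM12607P4 changed by 1.01, 0.86 and 1.02, each ± 0.27. All 3 of its calls were lost after normexp (0.32, 0.14 and 0.45) and with slide as a block (0.74, 0.71 and 1.07). DM00907P2, named as the FAD and quinone form, varied most of all members, with a within-photoperiod SD of 1.77. It had -3.09, -1.88 and -1.14 under 12L:12D, against -5.89, -5.24 and -1.81 under 16L:8D, and was called there only, at 2.63 ± 0.90. That call was lost without chamber 2 of 12L:12D (2.43) and with slide as a block (2.55). The DM11070P3 call under 4L:20D was lost when any 1 of 7 chambers was left out, and under 8L:16D without chamber 3 of 8L:16D or of 16L:8D. All 3 calls of DM11070P3 were lost after normexp (0.32, 0.23 and 0.65) and with slide as a block (0.56, 1.02 and 1.73), and its probe was well above background in 2 of 6 animals of 16L:8D.

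Of the other oxidoreductases, the short-chain dehydrogenase/reductase (DM01718P3), of a large family that acts on sugars, lipids and steroids, changed by -1.64 under 4L:20D and -1.59 under 8L:16D, each ± 0.42. All 6 animals of 4L:20D lay below all of 16L:8D. With slide as a block the change was -0.97 and -0.94, and neither was called. GDP-L-fucose synthetase (DM04084P1), which makes the donor of fucose for glycans, changed by -0.75 under 4L:20D and -0.63 under 12L:12D, each ± 0.19, and both calls rested on single chambers of both photoperiods, of 16L:8D and of 20L:4D. Both were lost with chamber as a random block, and normexp ended the 12L:12D call (-0.50). The aldo-keto reductase (DM05978P2) was well above background in 6 of 30 animals and in none of 4L:20D, against 1 of 16L:8D. It was not called.

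Among the nitrogen, cofactor and prostanoid synthases, argininosuccinate synthase (DM00989P1), which joins citrulline and aspartate on the way to arginine, was higher in 3 photoperiods. Its level was -4.64, -3.65 and -2.74 under 4L:20D, -4.85, -3.27 and -2.59 under 8L:16D and -3.57, -2.79 and -2.42 under 12L:12D, against -5.50, -4.97 and -3.32 under 16L:8D. The groups overlapped through animal 2B of 16L:8D and, under 8L:16D, also through its lowest animal. The change was 1.14, 1.43 and 1.89, each ± 0.33, and after normexp 0.37, 0.45 and 0.83, with none of the 3 called. Prostaglandin D synthase (DM01138P4), a relative of the glutathione S-transferases, changed by 0.84, 0.95 and 1.96, each ± 0.36. It had 0.74, 1.31 and 1.97 under 12L:12D, above every 16L:8D animal, at -1.43, -0.65 and 0.08. The 4L:20D call was lost without chamber 1 or 3 of 4L:20D or of 16L:8D, and the 8L:16D call without chamber 1 of 8L:16D. All 3 calls of the enzyme were lost with slide as a block, at 0.45, 0.53 and 1.79.

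Uridine 5'-monophosphate synthase, an enzyme of pyrimidine nucleotide synthesis, was lower by both its probes. DM03220P4 had -0.85, -0.72 and -0.15 under 4L:20D and -0.88, -0.72 and -0.47 under 12L:12D, against -0.06, 0.11 and 0.44 under 16L:8D, with no overlap, and changed by -0.76 and -0.87, each ± 0.17. With slide as a block the 4L:20D call was lost (-0.55). DM15321P1, the member just outside the threshold, changed by -0.50, -0.50 and -0.85 under 4L:20D, 8L:16D and 12L:12D, each ± 0.23, and did not overlap 16L:8D under 12L:12D. The molybdopterin synthase subunit (DM07574P1), of the molybdenum cofactor, was not called, at -0.61 ± 0.20 under 4L:20D.

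**Figure D3:**
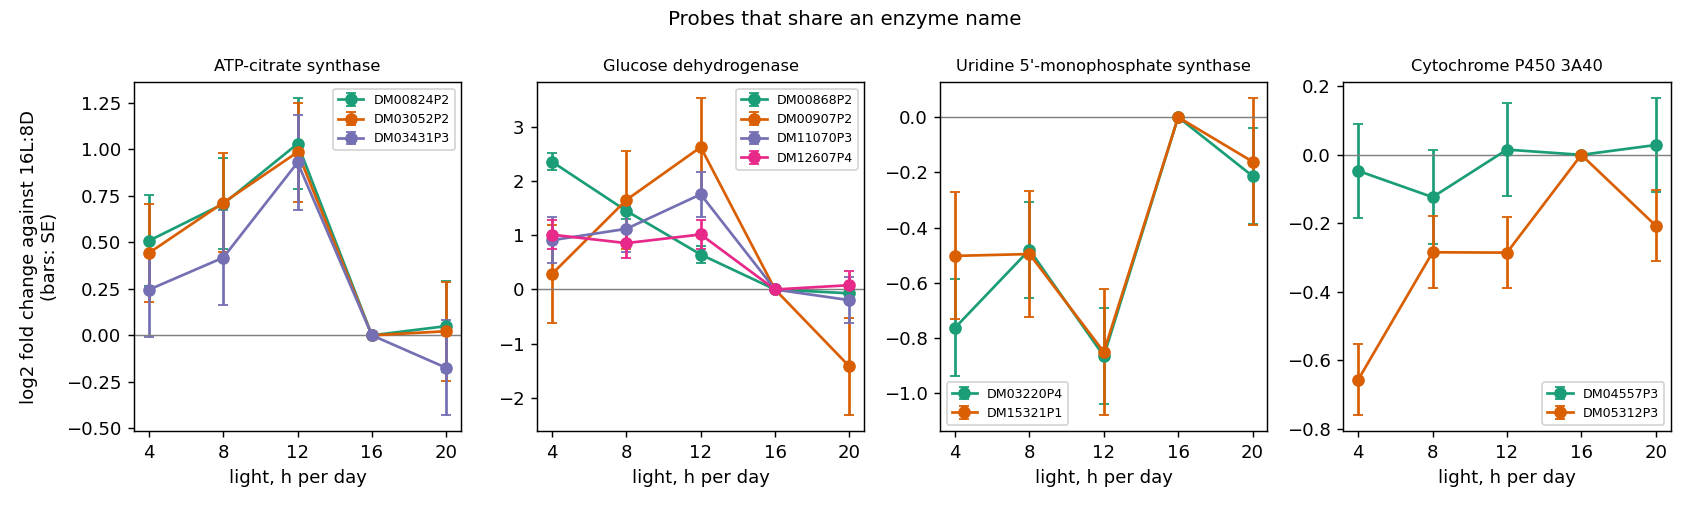
Log2 fold change against 16L:8D (y axis, bars show SE) by hours of light per day (x axis) for probes that share an enzyme name, with 16L:8D at 0. The 3 ATP-citrate synthase probes share a peak at 12 h, whereas glucose dehydrogenase DM00868P2 falls from 4 h onward and the others do not.

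The 4 cytochromes P450, haem enzymes that hydroxylate steroids, fatty acids and foreign compounds, included the only member called in both directions, by a probe near background. Cytochrome P450 305a1 (DM12027P2) had -7.39, -7.13 and -5.71 under 4L:20D, -7.74, -6.59 and -5.70 under 8L:16D, -7.47, -6.02 and -5.53 under 12L:12D and -4.43, -3.86 and -2.76 under 20L:4D, against -5.80, -5.07 and -3.48 under 16L:8D. It was well above background in no animal of 4L:20D or 8L:16D, 1 of 12L:12D and 6 of 20L:4D, against 2 of 16L:8D. The bounds set by the lowest signal well above background were 2.27-fold lower under 4L:20D and 2.69-fold lower under 8L:16D than under 16L:8D. They are not sure minimums, since only 2 animals of 16L:8D were well above background. Under 12L:12D the change was -1.41 ± 0.46. This probe was 1.17 ± 0.46 higher under 20L:4D, a call lost without chamber 3 of 20L:4D (0.82) or chambers 1 (0.92) or 2 (1.11) of 16L:8D. Under 12L:12D the call was lost without chamber 1 of 12L:12D (-0.87) or with slide as a block (-0.74). After normexp none of its 4 calls held, at -0.31, -0.32, 0.028 and 0.42, the third with its sign turned, and the filter on dim probes left it untested. Cytochrome P450 3A40 (DM05312P3) changed by -0.66 ± 0.10 under 4L:20D with no overlap, and the call was lost without chamber 1 of 16L:8D (-0.58), after normexp (-0.35) or with slide as a block (-0.60).

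The 4 members listed for trial 1 only were absent from the trial 2 list, which was drawn from these arrays. A lack of response here was thus largely settled by that listing, and the values below are descriptions, not an independent test. None of the 4 passed limma's test for photoperiod at an adjusted p of 0.05, and 1 had an unadjusted p under 0.05. The second cytochrome P450 3A40 probe (DM04557P3) had -2.98, -2.61 and -2.49 under 4L:20D, against -2.79, -2.67 and -2.39 under 16L:8D (limma, adjusted p = 0.86 for photoperiod). Nitrate reductase 1 (DM05678P4), named for an enzyme of nitrate use, spread from 1.42 to 3.54 under 4L:20D, against 1.54 to 2.72 under 16L:8D (limma, adjusted p = 0.86).

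5-aminolevulinate synthase (DM11242P3) differed by -0.54 ± 0.32 under 12L:12D, its largest difference (limma, adjusted p = 0.62). Its level was 0.04, 0.40 and 0.68 under 12L:12D, against 0.47, 0.96 and 1.19 under 16L:8D. Cytochrome p450 (DM04963P3) had the lowest p of the 4 (limma, adjusted p = 0.12). Its level was -6.65, -6.07 and -5.48 under 8L:16D, against -7.43, -6.96 and -6.09 under 16L:8D, but it was well above background in 3 animals of 8L:16D and in none of the other 24.

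**Figure D4:**
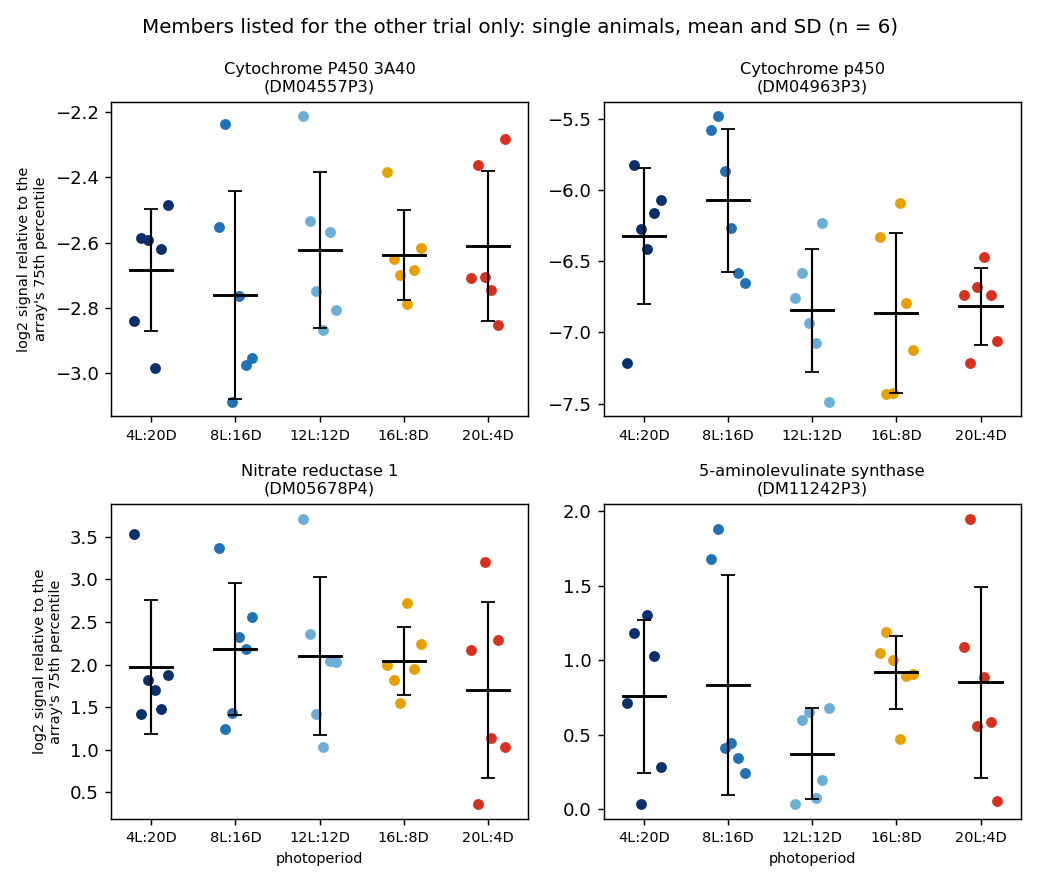
Level (y axis, log2 signal relative to the 75th percentile of the array) of the 4 members listed for trial 1 only, in single animals (dots) by photoperiod (x axis), with mean and SD of 6 animals. The photoperiods overlap for all 4, and 1 animal of 4L:20D stands above the other 5 for nitrate reductase 1.

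The animal letter and its interaction with photoperiod were not used to choose the members. Animals A and B were picked at random, so the letters share no meaning across chambers. No member had a p under 0.01 for the letter, where 0.432% of all probes did, and 1 had a p under 0.05 (nitrate reductase 1, limma adjusted p = 0.988). None had one for the interaction, where 1.46% did, and 2 had a p under 0.05, the lowest being argininosuccinate synthase (limma adjusted p = 0.75). Within photoperiods the members varied a little more than other probes, with a median SD of 0.438 beside 0.367 for all probes, which is a description. Along the 2 main axes of this spread, which hold 41.3% and 18.9% of it over all probes, lay a median of 35.0% of the variance of the members, beside 23.8% for all probes. For 14 of 35 members it was over 50%, where 22.6% of probes were. The share was 78.8% for the thiamine pyrophosphate carrier and 9.77% for glucose dehydrogenase DM00868P2.

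Probes that share an enzyme name gave 11 pairs, in which deviations from the photoperiod mean were compared over 30 animals. In 6 of the 11 the correlation had an adjusted p under 0.05 (permutation test within photoperiods, two-sided, adjusted over the 11 pairs). The draws took all animals of a photoperiod as exchangeable, although those of 1 chamber are not independent. Pairs of different names were not compared, so whether a shared name sets these pairs apart was not tested. On the 2 main axes of the spread over all probes lay 73.0% of the variance of DM11070P3 and 70.8% of DM12607P4. The ATP-citrate synthase probes DM00824P2 and DM03052P2 had r = 0.96 and rho = 0.95, with r = 0.95 without the 2 animals farthest from the median (permutation p = 1e-05 for both, the smallest that 100000 draws can give, adjusted p = 3.67e-05). The other 2 pairs of that enzyme had r = 0.88 and 0.85 (rho = 0.85 and 0.84; without 2 animals 0.83 and 0.78), with the same p.

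The uridine 5'-monophosphate synthase pair had r = 0.59 and rho = 0.61 (permutation p = 0.00672 and 0.00257, adjusted p = 0.0148 and 0.00581), and 0.54 without 2 animals. Glucose dehydrogenases DM11070P3 and DM12607P4 had r = 0.66 and rho = 0.58 (permutation p = 0.00055 and 0.00264, adjusted p = 0.00151 and 0.00581), and 0.61 without 2 animals. DM00907P2 and DM11070P3 had r = 0.55 and rho = 0.55 (permutation p = 0.0154 and 0.00498, adjusted p = 0.0282 and 0.00913), and 0.48 without 2 animals, but without animal 2B of 16L:8D r was 0.48 with an adjusted p of 0.118.

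Glucose dehydrogenase DM00868P2, the probe with the graded response, had r between -0.15 and 0.01 with each of the other 3 (adjusted p between 0.582 and 0.978). This depended on the background correction and the slide. After normexp r was 0.85 with DM11070P3 and 0.89 with DM12607P4 (permutation, adjusted p = 0.000726 and 0.00211), or 0.55 and 0.57 without 2 animals, and 0.34 with DM00907P2 (adjusted p = 0.0546). With slide as a term beside photoperiod, r was 0.39, 0.48 and 0.20, which was not tested. DM00907P2 and DM12607P4 had r = 0.37 (permutation p = 0.0726, adjusted p = 0.114), and the 2 cytochrome P450 3A40 probes r = 0.14 (permutation p = 0.554, adjusted p = 0.677). After normexp these r were 0.49 and 0.80 (permutation, adjusted p = 0.00462 and 0.00448), or 0.43 and 0.45 without 2 animals. Normexp lowered r of the ATP-citrate synthase pairs to 0.89, 0.75 and 0.51, the last being 0.34 without 2 animals. The uridine 5'-monophosphate synthase pair fell to r = 0.34 and rho = 0.33 (permutation, adjusted p = 0.0445 and 0.0708). DM11070P3 rose to 0.92 with DM12607P4 and 0.67 with DM00907P2. With slide as a term, DM00907P2 and DM12607P4 had 0.61 and the cytochrome P450 3A40 pair 0.35. The 3 ATP-citrate synthase pairs then had 0.92 to 0.97 and the uridine 5'-monophosphate synthase pair 0.44. DM11070P3 had 0.69 with DM12607P4 and 0.71 with DM00907P2. The pairs share arrays, so they are not independent of each other.

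**Figure D5:**
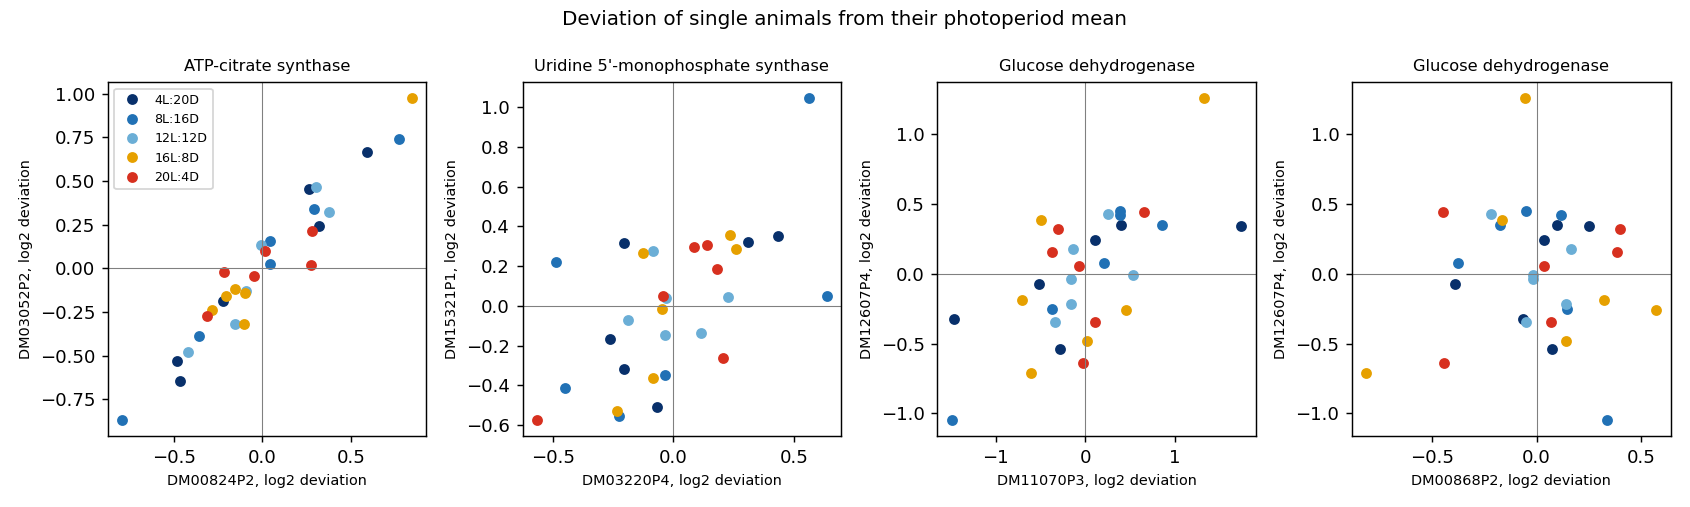
Deviation of each of 30 animals from its photoperiod mean (log2) for 4 pairs of same-named probes, x and y axes being 1 probe each and colours the photoperiods. The ATP-citrate synthase pair lies close to a line (r = 0.96), and glucose dehydrogenases DM00868P2 and DM12607P4 do not (r = 0.01, but 0.89 after normexp background correction).

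Gene lists of other cells and tissues also differed between photoperiods, and their part in the values above was not tested. Histones, of dividing cells and embryos, had a summed log2 level of 1.41 to 1.91 under 4L:20D, 1.92 to 2.39 under 8L:16D and 1.72 to 2.43 under 12L:12D. It was 1.38 to 4.28 under 20L:4D, against 2.81 to 4.41 under 16L:8D. In ascending order of light, 4, 4, 3 and 2 of the 5 were called lower. Over all probes 3.05%, 2.36%, 3.56% and 0.46% were called lower. Egg and yolk genes had 5, 6 and 5 of 8 called lower under 4L:20D, 8L:16D and 12L:12D. Their summed level was 3.56 to 4.38, 3.52 to 4.73 and 3.31 to 4.23, against 3.81 to 5.15 under 16L:8D. Of the 8, 1 was called higher, vitellogenin fused with superoxide dismutase (DM01555P3) under 12L:12D. Its change was 0.97, 0.77 and 1.97 in these 3. Another probe of that name (DM00375P2) was not called. Of 17 cuticle, chitin and collagen genes, 1, 8 and 10 were called higher and 2, 1 and 2 lower under 4L:20D, 8L:16D and 12L:12D. Over all probes 1.53%, 1.79% and 2.73% were called higher. The summed level of 2.78 to 5.80, 2.81 to 5.33 and 4.28 to 5.19 overlapped the 4.75 to 6.66 of 16L:8D. Of 8 digestive genes, 1, 2 and 3 were called higher and 2, 2 and 0 lower in the same 3 photoperiods. Their summed level of 4.80 to 6.51 under 4L:20D lay above the 3.63 to 4.31 of 16L:8D, which 8L:16D and 12L:12D overlapped. Of 3 muscle genes, 1, 0 and 2 were called higher and none lower in these photoperiods. Haemoglobin was called higher under 8L:16D (1.54) and 12L:12D (2.24). Every gene of these lists was above background on some array, and the lists came from the same study list, so their counts are descriptions.

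Among other lists chosen by name, 8 of 11 carbohydrate enzymes responded, with 5 called higher and 3 lower under 4L:20D. Glutamine-fructose-6-phosphate aminotransferase (DM02171P2), the first step of chitin precursor synthesis, had the smallest p, with a change of 0.92, 0.82 and 0.92 under 4L:20D, 8L:16D and 12L:12D, each ± 0.19. Of 11 conjugating enzymes, 8 responded, with 3 called higher and 4 lower under 4L:20D. UDP-glucuronosyltransferase (DM04941P2), which attaches sugar acids to lipophilic compounds, changed by -4.15, -3.46 and -1.62 in the same 3. Of 7 enzymes of amino acids, purines and polyamines 3 responded, none called under 4L:20D. Over all probes 11.4% responded, and 1.53% were called higher and 3.05% lower under 4L:20D. These lists too were drawn from the study's list, so their counts are descriptions.

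Slides were unevenly spread over photoperiods. With the slide as a block, 9, 6, 9 and 1 members were called in the 4 photoperiods set against 16L:8D, where 677, 507, 755 and 304 of all probes were. The 2 animals of a chamber are not independent, and with chamber as a random block 23 members responded (1250 of all probes, beside 1636) and 14, 16, 17 and 2 were called, the calls of GDP-L-fucose synthetase, 6-phosphogluconate dehydrogenase and glucose dehydrogenase DM11070P3 under 4L:20D being among those lost. Only arrays of 1 or 2 slides held both a given photoperiod and 16L:8D. The called members differed in the reported direction on all of these slides for 11 of 17 under 4L:20D, 15 of 17 under 8L:16D, 18 of 18 under 12L:12D and 1 of 2 under 20L:4D.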

How the data were processed

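The 30 arrays measured total RNA of single whole females with 1 colour. The authors extracted a fluorescence intensity per spot (Agilent Feature Extraction, version 9.5.1 per the labels and 10.7.3.1 per the file headers) and deposited it with the background already subtracted. The deposited table of log2 values, scaled by the authors, served as an alternative and had a correlation of at least 0.9999 with the values used here. Control spots and 188 flagged spots of 456240 were left out, spots of a probe were averaged on the log2 scale and the 75th percentile of each array was subtracted. Between 10568 and 12895 probes per array were well above background, and the 75th percentile of signal lay between 477 and 705. Precision is limited by how many arrays there are.

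Differences were fitted over 14337 probes with limma 3.58.1 in R 4.3.3, for a model of photoperiod crossed with the letter of the animal (20 residual and 1.907 prior degrees of freedom), and adjusted after Benjamini and Hochberg over all probes. A probe not well above background in any animal of a photoperiod has only a bound there, set against the lowest signal well above background on each array. Correlations used Python 3.11.15 with scipy 1.17.1 and 100000 permutations. The fit was tested on simulated data. Names of members came from the study's list, whose fold change columns were not used, and sequences from the same list. The members, roles and lists were chosen with earlier results of these data known. Named members were all those listed for trial 1 only, those with the smallest p or the largest change of each role, all probes of a shared name and any called both ways. Of the lists, the probe with the smallest p was named. Other members were named to account for all 35. Alternatives were other background corrections, scalings, filters, thresholds, blocks and covariates, and each chamber left out. No label says more than that animals and chambers were separate, so p-values measure the spread between these animals.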

Additional observations from a re-analysis of the deposited data

Results flagged for a closer look

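Among 22 named members in 5 photoperiods, 110 groups of 6 animals were looked at for a single animal far from the other 5, which chance gives in about 1 in 20 groups, and 10 groups had one. Animal 2B of 16L:8D was that animal in 6 of them. It stood high for fatty acyl-CoA reductase (DM14584P3, -4.30, the others at -8.09 to -7.05), glucose dehydrogenase DM00907P2 (-1.81, others -5.89 to -4.60) and argininosuccinate synthase (DM00989P1, -3.32, others -5.50 to -4.80). It also stood high for all 3 ATP-citrate synthase probes, at -0.71 for DM00824P2 (others -1.83 to -1.65), 1.75 for DM03052P2 (others 0.46 to 0.66) and -1.72 for DM03431P3 (others -3.001 to -2.54). On the second main axis of the spread this animal had a score of -96.2, the lowest of its photoperiod. Without it 24 members responded to photoperiod and, in ascending order of light, 20, 19, 17 and 1 were called in the other photoperiods.

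Animal 2B of 4L:20D stood high for fatty acyl-CoA reductase (DM14584P3, -2.91, others -7.45 to -5.99) and for cytochrome c oxidase polypeptide VIII (DM14672P4, 0.060, others -1.98 to -1.32). Animal 1A of 4L:20D stood high for nitrate reductase 1 (DM05678P4, 3.54, others 1.42 to 1.88). Animal 1B of 20L:4D stood low for uridine 5'-monophosphate synthase (DM03220P4, -0.60, others -0.08 to 0.17).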

How the results depend on the processing

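Normexp background correction of the median signal with an offset of 50 gave 16 members that responded and 9, 6, 9 and 1 calls against 16L:8D, the photoperiods being given by ascending hours of light. It moved the median change of all probes to 0.15 under 12L:12D and 0.12 under 20L:4D, and its offset shrinks changes of dim probes by construction. Cytochrome P450 305a1 (DM12027P2) under 12L:12D then had a change of 0.028 in place of a negative one. The same-named pairs past the threshold numbered 10 in place of 6, for which the cause was not tested. Slide as a block gave 11 that responded (1179 of all probes), 9, 6, 9 and 1 calls, and 1 member past the threshold for the interaction. Over all probes, 1636 responded in the fit reported, 908 after normexp, 794 at an adjusted p under 0.05 and 3713 with the 2 main axes of the spread as covariates. Calls over all probes, 657, 595, 902 and 117 as reported, were 377, 324, 534 and 51 after normexp, 376, 394, 529 and 57 at the adjusted p and 1871, 1356, 1832 and 758 with those covariates. A minimum of 2-fold gave 6, 6, 12 and 1 calls, where 314, 355, 579 and 36 of all probes were called. A filter on dim probes gave 1 call under 20L:4D, as did leaving out animal 2B of 16L:8D, an alternative chosen after seeing the data together with scan day, animal 1A of 4L:20D and slide as a term in the correlations.

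When single chambers were left out, 19 to 29 members responded, and calls ran from 11 to 20 under 4L:20D, 12 to 17 under 8L:16D, 11 to 19 under 12L:12D and 0 to 3 under 20L:4D. The letter and the interaction had 0 to 1 members each, the trial 1 members 0 to 0, and same-named pairs 5 to 7. The lowest counts came without chamber 1 of 16L:8D for 4L:20D (11), chamber 2 of 12L:12D for 12L:12D (11) and chamber 2 of 16L:8D for 20L:4D (0). Under 20L:4D there was 1 call without chamber 1 of 4L:20D or chamber 1 or 3 of 20L:4D. The replicate block gave 23 that responded and 14, 16, 17 and 2 calls. Of all probes, 1584 then responded and 612, 580, 876 and 104 were called. Deviations of same-numbered chambers correlated between -0.60 and 0.60, with 12 of 30 pairs over 0.1, so the numbers do not pair the samples. Of 39 called values of named members, 7 kept the call under every alternative fit and normalization, and in 1085 of 1086 such values the direction was that reported.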
